A study of Mus musculus with 6 samples.

Results

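The genes described here handle haem and iron in mouse macrophages. They comprise 10 genes of the 56691 in the deposited table: Slc48a1, Hmox1, Blvra and Blvrb for haem recovery and breakdown, Slc40a1 for iron export, Fth1 and Ftl1 for storage, and Tfrc, Slc11a1 and Slc11a2 for iron uptake and transfer. They were taken by gene symbol, and each symbol matched 1 row. The set was assembled with results of this comparison known, Hmox1 and Slc40a1 among them, so the differences of these 10 genes are described with their standard errors and without p-values. Where a gene of the set is said below to pass in a fit, its adjusted p fell below 0.05. That describes the fit and is no test of the gene, as the choice drew on the same contrast.

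All 6 libraries came from wild-type cells of the macrophage line written as RAW246.7 in the labels, an established tumour-derived line. Both groups had first been given lipopolysaccharide (LPS), a molecule of the outer membrane of bacteria to which macrophages respond. They then spent 24 h on MSA-ZW hydrogels (3 libraries) or on MSA-DA hydrogels (3 libraries). No library of untreated cells, or of cells off the gels, was analysed here. Whether replicates stem from separate cultures is not in the labels, so each p-value reflects variation among these 6 libraries, part or all of which may be technical.

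Macrophages clear old red cells and recycle their iron. Haem taken up in phagolysosomes is moved to the cytosol by the transporter that Slc48a1 encodes, haem oxygenase opens the ring to release iron, carbon monoxide and biliverdin, and the biliverdin reductases turn biliverdin into bilirubin. The freed iron is stored in ferritin shells built of heavy and light chains, or leaves through ferroportin, the product of Slc40a1. When iron is scarce, the iron regulatory proteins bind hairpins in messenger RNA called iron-responsive elements, which blocks translation where the hairpin lies in the 5′ untranslated region (UTR) and protects the message where it lies in the 3′ UTR.

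The sequences are shown because iron also controls messages with iron-responsive elements through their RNA, by blocked translation or by stability. Counts do not measure translation. The 30-base windows that follow were found in GENCODE vM21 transcripts (build GRCm38) and are written 5′ to 3′ in the sense of the message. Capitals mark the bulged C and the 6-base loop CAGTGN, and the 5 bases on either side of the loop pair with each other (A-T, G-C or G-T).
Fth1, 5′ UTR, chr19:9982732-9982761, plus strand: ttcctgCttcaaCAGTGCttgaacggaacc
Ftl1, 5′ UTR, chr7:45459778-45459807, minus strand: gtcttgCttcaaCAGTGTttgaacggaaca
Slc40a1, 5′ UTR, chr1:45925464-45925493, minus strand: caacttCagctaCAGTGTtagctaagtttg
Tfrc, 3′ UTR, chr16:32631219-32631248, plus strand: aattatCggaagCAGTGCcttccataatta
Tfrc, 3′ UTR, chr16:32631598-32631627, plus strand: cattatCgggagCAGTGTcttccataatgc
Tfrc, 3′ UTR, chr16:32631663-32631692, plus strand: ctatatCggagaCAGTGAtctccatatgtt
Tfrc, 3′ UTR, chr16:32631710-32631739, plus strand: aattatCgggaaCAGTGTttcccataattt

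The storage chains Fth1 and Ftl1 and the exporter Slc40a1 thus share the pattern in the 5′ UTR, where 28 of 21899 protein-coding genes had it (0.128%). The transferrin receptor Tfrc had 4 copies in the 3′ UTR, where 0.58% of the same genes had at least 1. The loop began 126 bases before the start codon in Fth1, 164 in Ftl1 and 218 in Slc40a1. No window of the other 6 genes matched these letters and pairs, which says nothing of hairpins with other letters or imperfect stems. The search therefore does not show that those genes, Slc11a2 among them, lack an iron-responsive element.

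The 3 MSA-DA libraries held 14374912 to 18346615 counts each, and the 3 MSA-ZW libraries held 16347934 to 18193026. The 10 genes together took 1.74% to 1.76% of all counts on MSA-DA and 1.59% to 1.66% on MSA-ZW. All 7 macrophage markers looked for, among them Csf1r, Cd68 and Lyz2, were present, with a summed level of 3913 to 3986 CPM (counts per 1000000, on scaled library sizes) on MSA-DA and 4543 to 4587 CPM on MSA-ZW. The sum does not show which of the 7 differed, and the part of that shift in the results was not tested. Within this 1 cell line, fewer cells with these messages and less of them per cell cannot be told apart in such bulk samples. Of 9 erythroid genes looked for as a source of haem, 7 were at 0 in every library, the 4 globin genes included, and the summed level of the 9 did not exceed 0.673 CPM. Markers of fibroblasts, lymphocytes, endothelial cells, epithelial cells and hepatocytes each summed to at most 1.87 CPM in every library.

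Haem oxygenase, haem transporter and ferroportin transcripts stood higher on MSA-DA, while the ferritin chains, transferrin receptor, biliverdin reductases and the remaining metal transporters differed by 0.17 or less on the log2 scale. The edgeR quasi-likelihood test on counts, adjusted over 12467 tested genes, placed 6 of the 10 below an adjusted p of 0.05, all 6 of them higher. Of all tested genes 13.4% passed, 6.92% as higher and 6.5% as lower. Nothing is read from the count of a set chosen on this contrast. In 7 of the 10 genes every MSA-DA library lay above every MSA-ZW library, which held for 14.7% of tested genes (28.4% in either direction). The median log2 difference was 0.09 over the 10 genes and 0.00 over all tested genes.

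**Figure D1:**
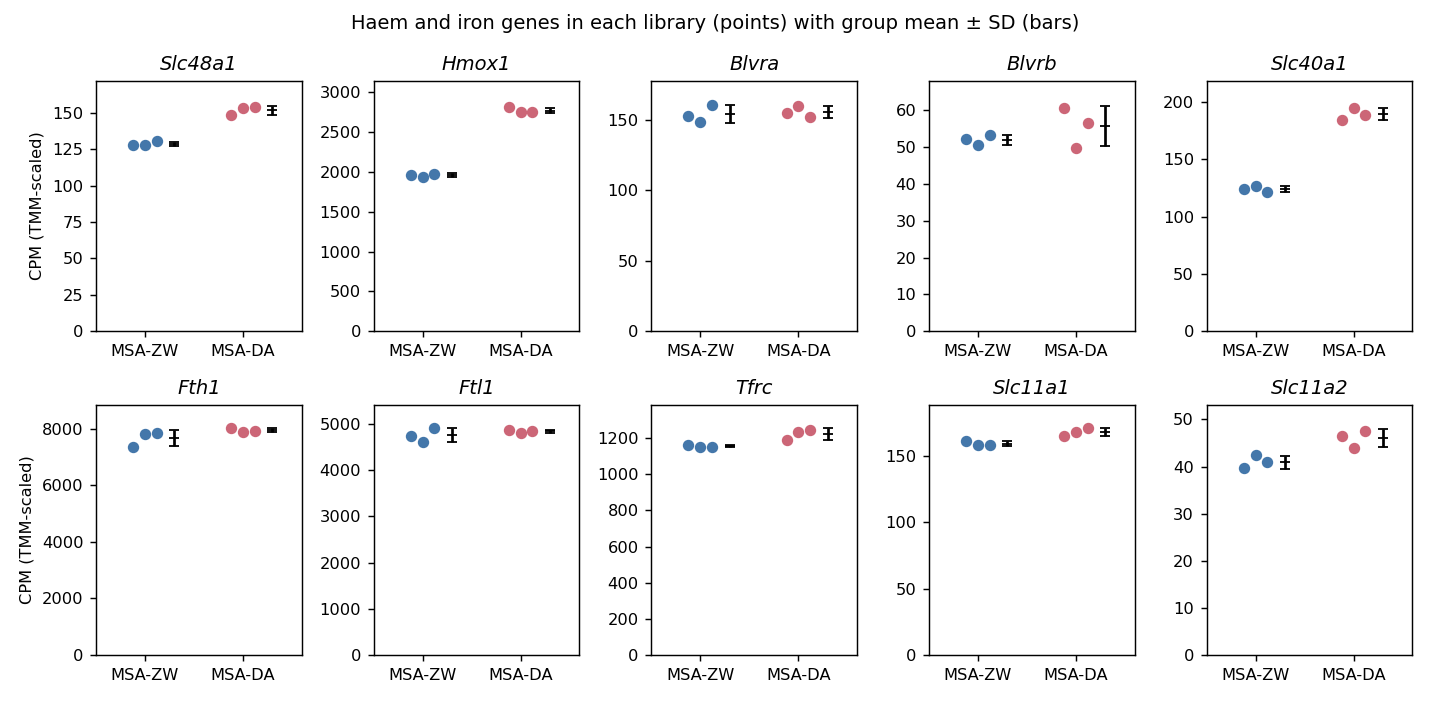
CPM of each gene (y axis, from 0) in the 3 MSA-ZW and 3 MSA-DA libraries (points), with the group mean and SD as bars. In the Slc48a1, Hmox1 and Slc40a1 panels the MSA-DA points lie well above the MSA-ZW points, while in the Blvra, Blvrb and Ftl1 panels the groups overlap.

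Slc48a1, the haem transporter of the phagolysosome (ENSMUSG00000081534, chromosome 15, 97676401 to 97690573, GRCm39), stood at 148, 153 and 154 CPM in MSA-DA replicates 1, 2 and 3. On MSA-ZW it stood at 128, 128 and 130 CPM. The groups were apart, and the gap was larger than the spread inside either group. The log2 difference was 0.24 (standard error 0.03), or 1.18-fold, from 152 ± 3.05 CPM against 129 ± 1.51 CPM (SD, n = 3). These values came from 2091 to 2801 counts per library.

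Hmox1 encodes the inducible haem oxygenase, the first and rate-limiting step of haem breakdown (ENSMUSG00000005413, chromosome 8, 75820249 to 75827217, GRCm39). Its level was 2810, 2749 and 2748 CPM in the MSA-DA libraries and 1961, 1935 and 1978 CPM in the MSA-ZW libraries. Replicates of a group differed little, with a coefficient of variation of 1.28% on MSA-DA and 1.11% on MSA-ZW. The log2 difference was 0.50 (standard error 0.02). By the gain in mean CPM, 811 CPM, Hmox1 ranked 2 among all 56691 genes, a measure that grows with abundance (Fth1, with a log2 difference of 0.05, ranked 9). By log2 difference Hmox1 ranked 268 among the 12467 tested genes. By mean FPKM, which divides by gene length, it ranked 13. It made 0.274% to 0.28% of all counts on MSA-DA and 0.193% to 0.198% on MSA-ZW.

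The enzymes of the next step showed small differences beside their errors. Blvra, biliverdin reductase A (ENSMUSG00000001999, chromosome 2, 126912585 to 126939004), was at 154, 160 and 152 CPM on MSA-DA and at 153, 148 and 161 CPM on MSA-ZW. These values are interleaved, and the log2 difference of 0.01 was smaller than its standard error of 0.03. Blvrb, which encodes biliverdin reductase B (ENSMUSG00000040466, chromosome 7, 27147403 to 27165569), was at 60.7, 49.8 and 56.6 CPM on MSA-DA and at 52.2, 50.5 and 53.3 CPM on MSA-ZW. MSA-DA replicate 2 was the lowest of all 6 libraries and MSA-DA replicate 1 the highest, a coefficient of variation of 9.87% that was the widest of any group among the 10 genes. The log2 difference of Blvrb was 0.09 (standard error 0.06), and 0.17 without MSA-DA replicate 2 or 0.02 without MSA-DA replicate 1.

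Slc40a1 encodes ferroportin, the exporter of cellular iron (ENSMUSG00000025993, chromosome 1, 45947228 to 45965683, GRCm39). It was at 184, 195 and 188 CPM on MSA-DA and at 124, 127 and 122 CPM on MSA-ZW. No value of one group came near the other, and the log2 difference of 0.61 (standard error 0.03) was the largest of the 10 genes. Between 2049 and 3558 counts per library lay behind these levels. Its message carries the 5′ UTR hairpin shown above, whose use is not measured by these counts.

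Ferritin transcripts differed little between the gels. Fth1, the heavy chain that oxidises incoming iron (ENSMUSG00000024661, chromosome 19, 9957962 to 9962462), was at 8005, 7870 and 7929 CPM on MSA-DA and at 7342, 7798 and 7857 CPM on MSA-ZW. The highest MSA-ZW library lay just under the lowest MSA-DA library, and MSA-ZW replicate 1 stood below the rest. The log2 difference was 0.05 (standard error 0.02), and 0.02 without MSA-ZW replicate 1, where it no longer passed. It passed in 2 of its 19 alternative fits.

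Ftl1, the light chain that favours mineral growth in the shell (ENSMUSG00000050708, chromosome 7, 45107368 to 45109308), was at 4874, 4811 and 4857 CPM on MSA-DA and at 4751, 4615 and 4912 CPM on MSA-ZW. The groups overlapped, with a log2 difference of 0.03 (standard error 0.02), or 0.089 once GC content and length were corrected for, where it passed. The FPKM ratio of Fth1 to Ftl1 was 0.632 ± 0.00193 (SD, n = 3) on MSA-DA, beside 0.622 ± 0.0281 (SD, n = 3) for MSA-ZW. Per length of the lowest-numbered transcript the mean ratio was 1.71 on MSA-DA and 1.68 on MSA-ZW. Which chain stood higher therefore depends on the length used, and the groups overlapped with either. Both chains together made 1.26% to 1.28% of all counts on MSA-DA and 1.21% to 1.28% on MSA-ZW.

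Ferritin genes have processed copies in the genome that can share reads with them. Ftl1-ps1 was the largest such row, with 547 to 838 counts per library, or 0.784% to 0.954% of the counts of Ftl1. Ftl1-ps1 gave a log2 difference of -0.10 (standard error 0.06, edgeR adjusted p = 0.343). Fth1-ps had 11 to 24 counts. Adding the ferritin copies to their chains left the log2 differences at 0.05 for Fth1 and 0.03 for Ftl1. Gm10252, which overlaps Ftl1 by 416 bases on the opposite strand, had 33 to 62 counts, and the other rows that overlap any of the 10 genes had at most 4.

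**Figure D2:**
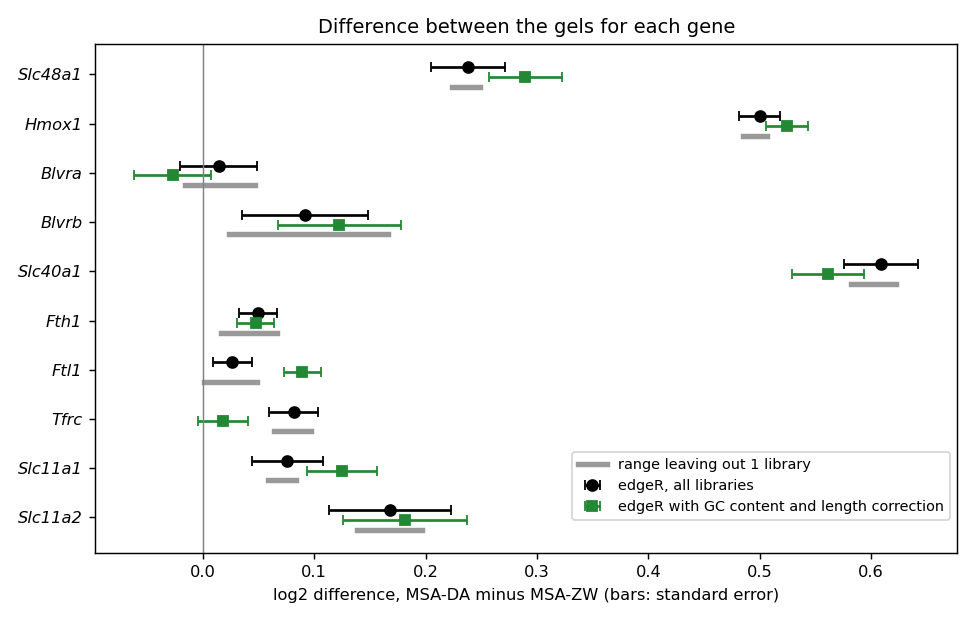
Log2 difference of each gene, MSA-DA minus MSA-ZW (x axis), with its standard error, in the fit to all libraries (circles) and with GC content and length corrected for (squares), above the range from leaving out 1 library at a time (grey bars). Slc40a1, Hmox1 and Slc48a1 lie apart from 0 in each, and Tfrc lies at 0.08 without and 0.018 with the correction.

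Tfrc encodes the transferrin receptor, which brings in iron bound to transferrin (ENSMUSG00000022797, chromosome 16, 32427738 to 32451612). It was at 1188, 1236 and 1245 CPM on MSA-DA and at 1164, 1152 and 1152 CPM on MSA-ZW. The groups were apart by little, as the lowest MSA-DA library was close to the highest MSA-ZW library. The log2 difference was 0.08 (standard error 0.02), and 0.018 with GC content and length corrected for, where it did not pass. It passed in 8 of 18 alternatives and not without MSA-ZW replicate 2, MSA-DA replicate 2 or MSA-DA replicate 3. The FPKM ratio of the exporter Slc40a1 to the importer Tfrc was 0.106 ± 0.00213 (SD, n = 3) on MSA-DA, beside 0.0738 ± 0.00174 (SD, n = 3) for MSA-ZW, without overlap. That gap lay mostly in Slc40a1 and little in Tfrc. Whether the iron-responsive elements of either message have a part in it was not tested.

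Both SLC11 genes encode transporters that can move divalent metals out of vesicles, and counts do not show whether the proteins work in these cells. Slc11a1, NRAMP1 of the phagosome membrane (ENSMUSG00000026177, chromosome 1, 74414354 to 74425221), was at 165, 168 and 171 CPM on MSA-DA and at 161, 158 and 158 CPM on MSA-ZW. The groups did not overlap, yet the log2 difference was only 0.08 (standard error 0.03), and 0.12 with GC content and length corrected for, the 1 alternative of 18 in which it passed.

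Slc11a2, DMT1 of endosomes (ENSMUSG00000023030, chromosome 15, 100285779 to 100322953), was the least abundant of the 10 genes, with 655 to 805 counts per library. It was at 46.5, 44.0 and 47.6 CPM on MSA-DA and at 39.6, 42.4 and 40.9 CPM on MSA-ZW. All MSA-DA libraries were higher, with a log2 difference of 0.17 (standard error 0.06). It passed in 6 of 18 alternative fits, and leaving out MSA-ZW replicate 1 or 3 or MSA-DA replicate 1 or 3 each ended the call, with log2 differences between 0.14 and 0.17.

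Levels between genes can be compared only per length, and the order then depends on which length is used. The deposited FPKM divide by the exonic length of the gene, 3469 bases for Fth1 and 1340 for Ftl1. On this scale Ftl1 was the most abundant of the 10 genes, with a mean of 3581 FPKM over the 6 libraries against 2246 for Fth1 and 1348 for Hmox1. Divided instead by the length of the lowest-numbered GENCODE vM21 transcript, 929 bases for Fth1 and 968 for Ftl1, Fth1 came first with 8386 against 4957. That choice of length was made after the data were seen, and it alters no difference between the gels.

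Below these 3 came Tfrc with a mean of 192 FPKM, Blvra with 63.1, Slc48a1 with 50.9 and Slc11a1 with 44.1. Blvrb followed with 19.3, Slc40a1 with 17.4 and Slc11a2 with 6.84 FPKM. Per lowest-numbered transcript Slc11a1 came before Slc48a1, with 70.5 against 55.2, and Slc40a1 stood at 46.4, with 3370 bases in place of 9000. Among neighbours in the FPKM order, only the ranges of Blvrb and Slc40a1 over the 6 libraries overlapped. On MSA-ZW Blvrb stood above Slc40a1, at 18.7 ± 0.528 against 13.8 ± 0.285 FPKM (SD, n = 3). On MSA-DA they stood at 19.9 ± 1.96 and 20.9 ± 0.588 FPKM (SD, n = 3), within the spread of Blvrb.

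**Figure D3:**
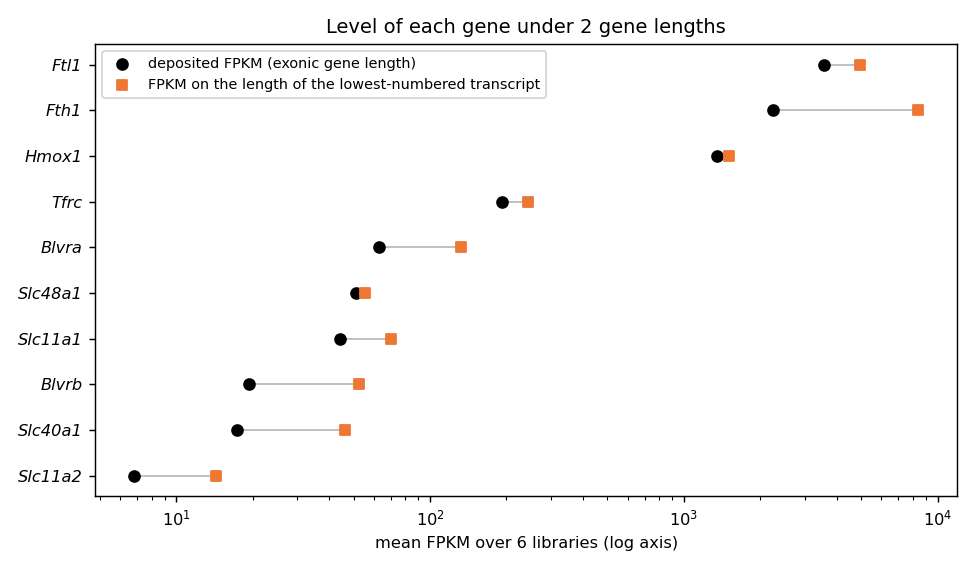
Mean FPKM of each gene over 6 libraries on a log axis, with the deposited exonic length (circles) and with the length of the lowest-numbered transcript (squares). Fth1 shifts most, from 2246 to 8386, and overtakes Ftl1.

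The antioxidant response element, to which NRF2 and BACH1 bind with small MAF proteins, is a known control of Hmox1 and of ferritin genes. Its core, TGACNNNGC, was searched on both strands of the RefSeq promoter windows (GRCm38.p6), each 300 bases long with 250 before the gene start. Windows were held for 6 of the 10 genes, Hmox1, Slc40a1, Slc48a1 and Slc11a2 not among them. These 6 genes had 9 windows, of which 1 had a match, beside 12.4% of all 32851 windows. The match was in Blvra, 49 bases before its start and on the opposite strand. A match is a description of letters and not of binding. Elements outside these windows, such as those more than 250 bases before the start, could not be found. A window without a match therefore does not show that the gene lacks the element.

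The wider pathway was read from 10 lists of 87 other haem and iron genes, of which 68 had enough counts to be tested. These lists too were chosen with earlier results of the same data known, so their counts are descriptions and nothing about a list is read from them. In these, 5 genes rose and 3 fell on MSA-DA, or 11.8% called, beside 13.4% of all tested genes. The other 60 did not pass. The median log2 difference over the 68 was -0.0049, beside 0.00085 over all tested genes. DESeq2 called 4 of the 58 to which it gave an adjusted p (6.9%), beside 10.8% of all genes with one.

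Among regulators of haem and iron genes, edgeR called 3 of 10 as higher and 0 as lower, beside 6.92% and 6.5% of all tested genes. Bach1, the haem-sensing repressor of Hmox1, was at 30.9, 33.9 and 37.0 CPM on MSA-DA and at 26.5, 28.1 and 29.8 CPM on MSA-ZW (log2 difference 0.27, standard error 0.07, edgeR adjusted p = 0.00745). Bach1 passed in 10 of 18 alternatives, with adjusted p in a range of 0.00179 to 0.235. Its call was lost without MSA-ZW replicate 1 (adjusted p = 0.0546), without MSA-DA replicate 3 (0.103) and in every limma fit. Nfe2l2, which encodes NRF2, the activator that competes with BACH1, was at 144, 154 and 149 CPM on MSA-DA and at 129, 134 and 135 CPM on MSA-ZW. This was a rise of 0.17 on the log2 scale (standard error 0.03, edgeR adjusted p = 0.000858). Hif1a, the oxygen-regulated factor, also rose, at 607, 610 and 652 CPM against 567, 554 and 543 CPM (log2 difference 0.17, standard error 0.03, edgeR adjusted p = 4.00e-05). Nfe2l2 and Hif1a each passed in 14 of 18 alternatives. Keap1, the inhibitor that marks NRF2 for destruction, did not pass, at 101 ± 1.06 CPM for MSA-DA and 104 ± 2.2 CPM for MSA-ZW (n = 3, SD, edgeR adjusted p = 0.599).

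Of 6 tested genes of iron sensing and the hepcidin axis, edgeR called 0 and DESeq2 0, and at an unadjusted p below 0.05 1 was higher and 1 lower. Aco1 and Ireb2 encode the iron regulatory proteins that bind the hairpins shown above. Aco1 had a log2 difference of 0.06 (standard error 0.05) and Ireb2 of 0.00 (standard error 0.03), with edgeR adjusted p of 0.494 and 0.982. Fbxl5, the iron-sensing adaptor for IRP2 degradation, had a log2 difference of 0.11 (standard error 0.05, edgeR adjusted p = 0.113), and of 0.061 without MSA-DA replicate 3 and with GC content and length corrected for. Aco1 was at 0.024 without MSA-DA replicate 2. Hfe, which encodes a partner of the transferrin receptor in iron sensing and is named here after its values were seen, differed most in this list and in the other direction. It stood at 8.11, 9.35 and 7.55 CPM on MSA-DA and 10.9, 9.98 and 9.65 CPM on MSA-ZW, without overlap (log2 difference -0.28, standard error 0.11, edgeR adjusted p = 0.0992).

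Of 6 ferritin turnover and iron chaperone genes, 1 was called as higher, beside 6.92% of all tested genes, and that call passed in 1 of 18 alternatives. Ncoa4, the receptor that delivers ferritin to lysosomes, stood at 74.9 ± 0.748 CPM for MSA-DA and 74.7 ± 2.58 CPM for MSA-ZW (n = 3, SD, edgeR adjusted p = 0.963). Pcbp1, a chaperone that loads iron into ferritin, was at 248 ± 3.13 against 257 ± 1.26 CPM (edgeR adjusted p = 0.283). The 1 gene called was Tax1bp1, an autophagy adaptor, with a log2 difference of 0.09 (standard error 0.03, edgeR adjusted p = 0.0466), which lost its call when any 1 library was left out (adjusted p of 0.0498 to 0.61 over 18 alternatives) and stood at 0.035 with GC content and length corrected for.

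Among 8 tested haem synthesis genes 1 was called as lower, beside 6.5% of all tested genes: Urod, uroporphyrinogen decarboxylase, fell, at 18.9, 22.1 and 20.2 CPM on MSA-DA against 27.4, 23.8 and 25.4 CPM on MSA-ZW (log2 difference -0.32, standard error 0.08, edgeR adjusted p = 0.00491). Urod passed in 14 of 18 alternatives. Of 9 tested haem transport and binding genes edgeR called 0 and DESeq2 0, and 1 was higher at an unadjusted p below 0.05. Flvcr1, a haem exporter, came nearest, at 50.2 ± 2.47 CPM for MSA-DA and 45.1 ± 2.92 CPM for MSA-ZW (n = 3, SD, edgeR adjusted p = 0.0590), and it passed without MSA-ZW replicate 2 (0.0248, in a range of 0.0248 to 0.363 over 18 alternatives). Of 2 other haem degradation genes and 1 tested partner of iron export, edgeR called 0 and DESeq2 0, with 0 at an unadjusted p below 0.05. The constitutive haem oxygenase Hmox2, of the former list, stood at 76.5 ± 2.12 against 79.2 ± 2.18 CPM (edgeR adjusted p = 0.509).

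Scavenging of free haem gave 1 testable gene. Lrp1, the receptor for haem bound to haemopexin among many other ligands, was at 777, 742 and 721 CPM on MSA-DA and at 900, 863 and 777 CPM on MSA-ZW (log2 difference -0.18, standard error 0.03, edgeR adjusted p = 0.000231). The groups overlapped at MSA-ZW replicate 3, DESeq2 did not call it (adjusted p = 0.0622, in a range of 4.59e-13 to 0.276 over 18 alternatives), and it was -0.096 with GC content and length corrected for. The haemoglobin receptor Cd163 had at most 1 count in any library. Spic, a factor of iron-recycling macrophages, and the hepcidin gene Hamp had 0 counts in every library, where the 3 counts that a count of 0 allows come to 0.21 CPM in the shallowest. Of the 19 genes too low to test, 9 were at 0 throughout and none exceeded 18 counts in a library.

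Among 5 tested genes of iron uptake and reduction, 1 was called as lower, beside 6.5% of all tested genes, and that was Lcn2. It encodes lipocalin 2, which withholds siderophore-bound iron from bacteria, and was at 7.34, 8.97 and 7.74 CPM on MSA-DA and at 9.73, 11.4 and 10.1 CPM on MSA-ZW (log2 difference -0.37, standard error 0.11, edgeR adjusted p = 0.0265). Lcn2 passed in 7 of 17 alternatives, with adjusted p in a range of 0.0208 to 0.168. Among the losses were the fits without MSA-ZW replicate 2, MSA-DA replicate 1 or MSA-DA replicate 3, with adjusted p of 0.127, 0.114 and 0.0948. Steap3, an endosomal iron reductase, was at 21.5 ± 1.01 CPM for MSA-DA and 22.5 ± 2.43 CPM for MSA-ZW (n = 3, SD, edgeR adjusted p = 0.701), and its difference changed sign without MSA-ZW replicate 1. Of 20 tested genes of mitochondrial iron import and iron-sulphur assembly, 1 was called as higher, beside 6.92% of all tested genes. That gene was Slc25a37, mitoferrin 1, at 56.5 ± 1.61 CPM for MSA-DA and 51.0 ± 2.29 CPM for MSA-ZW (n = 3, SD, edgeR adjusted p = 0.0438), and it passed in 2 of 18 alternatives, lost when any library but MSA-ZW replicate 3 was left out (adjusted p of 0.0154 to 0.24).

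**Figure D4:**
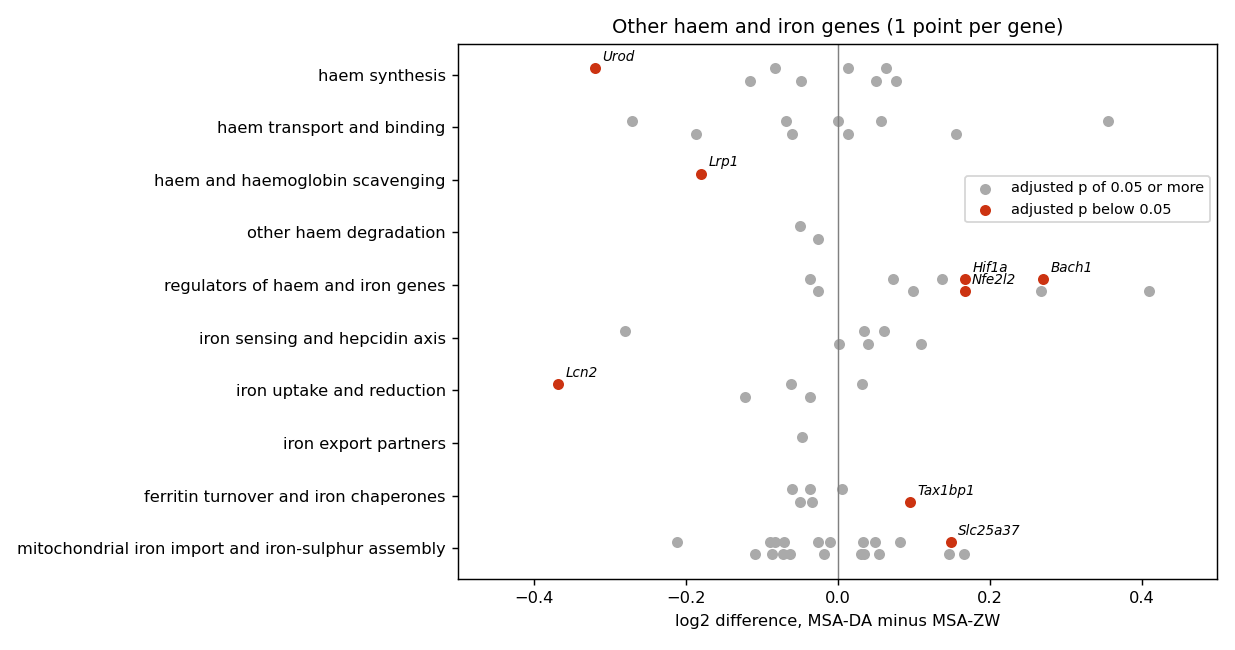
Log2 difference, MSA-DA minus MSA-ZW (x axis), of the 68 tested genes in 10 lists (y axis), 1 point per gene, with genes at an adjusted p below 0.05 in red and named. The 3 called regulators lie on the higher side, and most other points lie between -0.2 and 0.2.

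Genes whose profile over the 6 libraries was nearest to those of Hmox1 and Slc40a1 were found by the root-mean-square distance of centred log2 CPM among the 8613 other genes that averaged 10 CPM or more. Replicates of a group differed little, so a small distance mainly means a difference between the gels of like size. Shared control was not tested. The nearest to Hmox1 were Jag1, a Notch ligand (distance 0.0324), Cass4, an adhesion scaffold (0.044), the noncoding RNA Gas5 (0.0492) and the cyclin gene Ccnl2 (0.0494). The nearest to Slc40a1 were Gas5 (0.0402), Lilrb4b (0.0514), Ccnl2 (0.065) and the transporter gene Abcc5 (0.077). Lilrb4b can share reads with its near-identical neighbour Lilrb4a, so its value is uncertain. Gas5 and Ccnl2 were named for both genes, at 106 ± 2.85 against 71.1 ± 0.761 CPM and at 112 ± 2.23 against 79.2 ± 3.36 CPM (MSA-DA against MSA-ZW, SD, n = 3).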

How the data were processed

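RNA from 6 libraries, 3 for each gel, was compared. Per the submitters' processing notes, the tools were HISAT2 2.2.1 (build GRCm39), cutadapt 1.9.1 and bcl2fastq. Read counting (tool, strand setting, annotation): not given in the sources used here. For 56691 genes the authors deposited, per the file headers, raw counts, FPKM and exonic gene length. The deposited FPKM equal count over length and library total, to within 0.011 for 100% of values.

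Groups came from the titles. The main test was the edgeR 4.0.16 quasi-likelihood test (TMM, filterByExpr, R 4.3.3) with Benjamini-Hochberg adjustment. On simulated counts with 50 genes changed at each fold, it recovered 66% at 1.2-fold, 76% at 1.5-fold, 90% at 2-fold and 98% at 3-fold. It made 18 false calls there, so small differences can be missed and some calls can be false. The changed genes were drawn at random from 12467 at any level, a smaller share than the 13.4% called in the data. These percentages therefore need not hold for abundant genes or for the data themselves. Standard errors were computed as the absolute log2 difference divided by the root of F. Alternatives were RLE factors, DESeq2 1.42.0, no count filter, limma 3.58.1 on log2(FPKM + 1) or log2(FPKM + 0.5) (at least 1 FPKM in 3 libraries, or no filter), a replicate block, omission of mitochondrial and ribosomal-RNA-like loci, added ferritin copies, a threshold of 0.01 and omission of each library. A loess correction for GC content and length (98.9% of tested genes had a GC value) was chosen after seeing the data. So were limma fits with a variance trend, added because the fits without one called fewer genes than an earlier result of these data, and both versions are given. Chi-square per degree of freedom was 1.55 to 1.63 for pairs of MSA-DA libraries and 2.63 to 4.22 for pairs of MSA-ZW libraries. For pairs across gels it was 5.37 to 8.54. Replicates thus varied by more than the sampling of reads, which does not tell separate cultures from technical repeats. The common biological coefficient of variation in edgeR was 3.04%.

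The 10 genes and the pathway lists were chosen with earlier results of these data known. Rules for named genes took the 10 genes, 12 set pathway genes, up to 4 called genes of each list with the smallest p, called list genes of at least 1.3-fold, and the 4 nearest profiles of Hmox1 and Slc40a1. Cd163, Spic, Hamp, Hfe and the overlapping rows fall outside it and were picked with their values in view. Iron-responsive elements were searched in GENCODE vM21 transcripts of 10 of 10 genes. Coordinates of genes are those of the deposited table (GRCm39), and those of sequences are GRCm38.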

Additional observations from a re-analysis of the deposited data

How the results depend on the processing

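Hmox1, Slc40a1 and Slc48a1 were higher on MSA-DA in 18 of 18 alternatives, which describes the contrast they were chosen on. The GC content and length correction, chosen after seeing the data, gave log2 differences of 0.52 for Hmox1, 0.56 for Slc40a1, 0.29 for Slc48a1, 0.089 for Ftl1, 0.018 for Tfrc and 0.12 for Slc11a1, and the cause was not tested. On log2(FPKM + 1), a scale that understates low genes, Slc40a1 was at 0.57 in limma with and without the FPKM filter and with and without the variance trend. Leaving out 1 library gave 0.48 to 0.51 for Hmox1, 0.58 to 0.62 for Slc40a1, 0.22 to 0.25 for Slc48a1, -0.016 to 0.047 for Blvra, 0.024 to 0.17 for Blvrb, 0.016 to 0.067 for Fth1, 0.001 to 0.049 for Ftl1, 0.064 to 0.097 for Tfrc, 0.059 to 0.083 for Slc11a1 and 0.14 to 0.20 for Slc11a2.

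Of the 10 genes 6 passed, against 3 in each of the 6 limma fits, 3 at a threshold of 0.01, and 3 to 6 leaving out 1 library (3 without MSA-DA replicate 3). DESeq2 called 4 of the 10, Fth1 and Slc11a2 not among them. The share of all tested genes called as higher was 5.58% with DESeq2 (of genes with an adjusted p), 3.81% at 0.01 and 4.06% without MSA-DA replicate 3. In limma without the trend it was 1.85% at a pseudocount of 1, 1.66% at 0.5 and 0.31% without the filter. With the trend it was 3.83%, 3.83% and 0.855%.

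Pathway genes passing as higher numbered 5, against 3 with DESeq2, without a count filter, with the replicate block, without mitochondrial and ribosomal-RNA-like loci and at 0.01, and 2 to 5 leaving out 1 library (2 without MSA-ZW replicate 1 or MSA-DA replicate 3). Those passing as lower numbered 3, against 1 with DESeq2 and 2 to 4 leaving out 1 library. Limma as planned, without a variance trend, called 0 higher and 0 lower at both pseudocounts and without the filter. With the trend, added after seeing the data, it called 2 higher and 1 lower at both pseudocounts, and 0 and 0 without the filter.

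Over all genes 863 were higher and 810 lower, against 489 and 454 with DESeq2. Planned limma called 201 and 202 at a pseudocount of 1, 181 and 185 at 0.5, and 73 and 86 without the filter. With the trend it called 416 and 490, 417 and 490, and 201 and 211. Leaving out 1 library gave 474 to 819 higher and 527 to 835 lower, lowest without MSA-DA replicate 2.

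Nothing in the labels pairs the replicate numbers, and deviations of same-numbered libraries correlated at 0.0082, 0.0091 and -0.0053. With the replicate block 5 of the 10 genes and 1594 of all genes passed, 831 of them higher, with log2 differences of 0.50 for Hmox1, 0.61 for Slc40a1 and 0.24 for Slc48a1. Depth was lowest for Slc11a2, with 655 to 805 counts per library.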
